A study of Mus musculus with 24 samples.

Results

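A pair of mouse models of cardiac Fkbp1a deletion that differ in their Cre driver were compared directly, the early deletion (FKl/l MHC+) against the late deletion (FKl/l MCK+), in 12 of the 24 whole-heart RNA-seq libraries of the series. The members were chosen by genotype label alone, with 6 libraries in each group, and the results describe all genes. In FKl/l MHC+ hearts Cre recombinase was driven by the αMHC promoter, active from embryonic day 9. In FKl/l MCK+ hearts it was driven by the promoter of muscle creatine kinase (MCK), active from day 13, and per the study's design the drivers also differ in how much Cre they make. Both groups carried the floxed Fkbp1a allele. The other 12 libraries came from FKl/l mice, which have the floxed allele and no Cre, and from MHC CRE Only mice, which have the αMHC driver without the floxed allele. Each genotype had 3 libraries in batch 1 and 3 in batch 2, and a library is named here by its batch and number. No library carried the MCK driver without the floxed allele. A difference between the deletions is therefore a difference between 2 drivers, their timing, strength and own effects included, and these cannot be told apart. The labels do not give age and do not tie each library to its own mouse, so the p-values reflect spread between libraries that may be technical.

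Fkbp1a encodes FKBP12, an immunophilin that is the cellular partner of the drugs rapamycin and FK506 and sits on ryanodine receptors, through which muscle releases stored calcium. The αMHC promoter belongs to Myh6 and is active in cardiomyocytes from the start of heart formation. The MCK promoter belongs to Ckm, a muscle gene switched on later in both heart and skeletal muscle, and αMHC-driven Cre is itself known to affect cardiomyocytes in some lines. Stressed cardiomyocytes are known to raise natriuretic peptides, ankyrin repeat proteins such as Ankrd1, secreted stress signals and fetal or skeletal muscle isoforms.

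Gene counts summed to between 27799403 and 40412640 per library. Mitochondrially encoded transcripts took 28.2 to 36.1% of counts in FKl/l MHC+ and 27.4 to 36.5% in FKl/l MCK+. Levels are given as CPM, a gene's count relative to the library's total after scaling by edgeR's TMM method. Summed markers of lung and airway epithelium lay between 7.85 and 85.9 CPM in FKl/l MHC+, highest in libraries 2-1 and 2-3, and between 3.64 and 34.8 CPM in FKl/l MCK+, with 0 of 10 such markers called. Among the control libraries MHC CRE Only 2-3 and FKl/l 1-1 stood apart by these markers, at 1109 and 433.7 CPM. Fkbp1a was at 81.8 CPM in the library labelled MHC CRE Only 1-3, below all other control libraries and against its label. Y-linked transcripts were found in all 24 libraries. Xist was above 1 CPM in 4 FKl/l MHC+ and 2 FKl/l MCK+ libraries, at up to 2.16 CPM. Sarcomere and Z-disc genes, which define heart muscle, summed to at least 66281 CPM in every library.

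The targeted gene stood at overlapping levels in both deletions. Fkbp1a (ENSMUSG00000032966; GRCm38 chromosome 2 from 151542483 to 151561692, plus strand) had lowest, median and highest levels of 43.5, 56.1 and 75.7 CPM across the FKl/l MHC+ libraries and of 51.1, 64.6 and 81.1 CPM across FKl/l MCK+. The ranges overlap, with early libraries 2-1 and 1-3 below all late ones and late library 1-1 above all early ones, and lie below every FKl/l library, the lowest of which had 121 CPM. Between the deletions the log2 fold change was -0.14 (± 0.124 SE, adjusted p = 0.638). In whole hearts, for this and all genes below, fewer cells of a type and less RNA per cell cannot be told apart. Fkbp1b, which encodes the paralog FKBP12.6, averaged 0.369 and 0.457 CPM (adjusted p = 0.731). Of 15 FKBP genes tested, 1 was called, Fkbp10, a collagen-folding isomerase of the endoplasmic reticulum, at -0.33 (± 0.0819 SE, adjusted p = 0.0278). It was lost without FKl/l MCK+ 1-2, 2-1 or 2-3 or FKl/l MHC+ 2-2 or 2-3 (with adjusted p rising to 0.0704).

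Across 16018 genes tested, 345 were called between the deletions (2.15%), 158 higher in FKl/l MHC+ (0.986%) and 187 lower (1.17%). A gene was called at an adjusted p under 0.05 by edgeR's quasi-likelihood test, and all fold changes below are early minus late on the log2 scale. Most differences were modest, with medians of 0.48 for the higher and -0.37 for the lower genes. The higher genes held most of the large changes, since of 40 genes that differed at least 2-fold 33 were higher and 7 lower. The 6 and 6 libraries did not overlap for 128 of the called genes, against 191 of all genes tested (1.19%). The sign was shared by batch 1 and batch 2 for all 345 genes, largely by construction, as both entered the calls. The balance of directions moved with the scaling, to 190 higher and 142 lower when mitochondrially encoded genes were left out, 181 and 153 with RLE size factors, and 182 and 140 when only the 12 libraries were fitted. The count depended on single libraries. It was 143 without FKl/l MHC+ 2-3, 163 without 1-3 and 167 without 1-2 of that group, and 172, 224 and 214 without FKl/l MCK+ 1-1, 1-2 and 1-3.

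**Figure D1:**
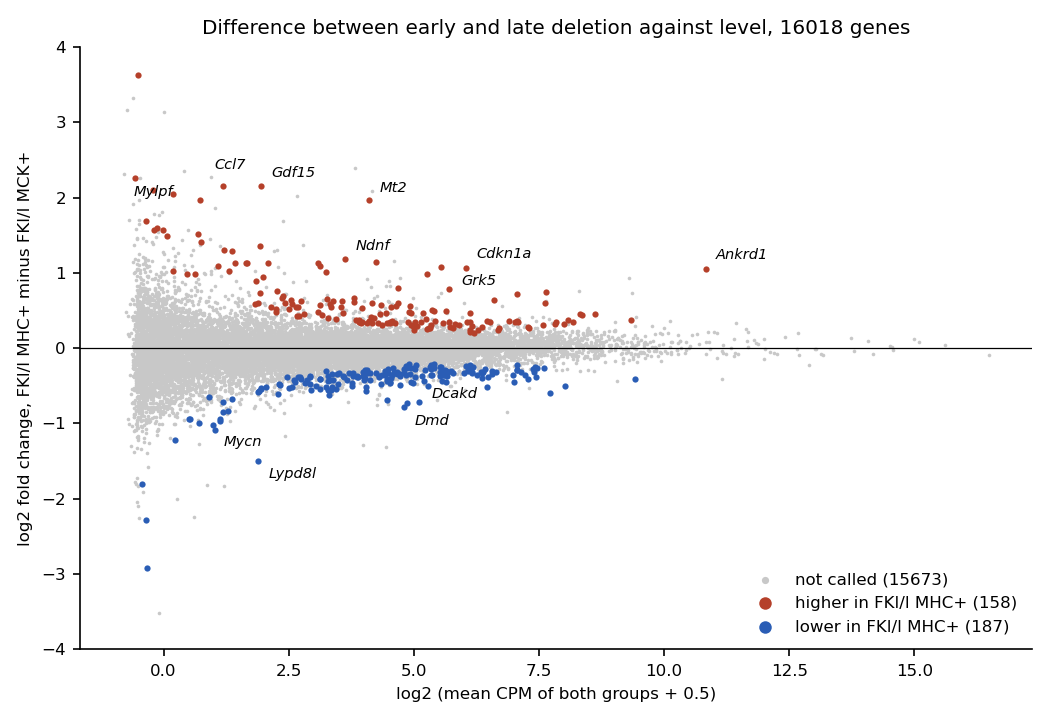
Log2 fold change of each tested gene between FKl/l MHC+ and FKl/l MCK+ (vertical axis) against its mean level in both groups on a log2 scale (horizontal axis). Of the called genes, 158 lie above 0 and 187 below, with Ankrd1 at 1.04 and Dmd at -0.78 among those labelled.

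Dystrophin was lower in the early deletion. Dmd, which encodes the rod-shaped protein that links the cytoskeleton to the membrane of muscle cells (ENSMUSG00000045103; chromosome X from 82948870 to 85206141, plus strand), had lowest, median and highest levels of 17.2, 20.5 and 24.7 CPM in FKl/l MHC+ and of 31.4, 35.3 and 37.1 CPM in FKl/l MCK+. No early library reached the lowest late one. This difference had the smallest p of all genes (log2 fold change -0.78 with an SE of 0.0755, adjusted p = 7.45e-07), and the log2 fold change was -0.86 in batch 1 and -0.70 in batch 2. FKl/l averaged 36 ± 4.25 CPM and MHC CRE Only 28.5 ± 2.97 CPM (SD, n = 6 each). Against MHC CRE Only the early deletion had a log2 fold change of -0.49 (adjusted p = 0.000511), and the driver alone differed from FKl/l by -0.33 (adjusted p = 0.0775).

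Of 21 genes of the dystrophin complex tested, 2 were called lower and 0 higher, with a median log2 fold change of -0.037 against -0.0071 over all genes. The other called member was Lama2, the laminin chain of the muscle basement membrane that binds dystroglycan. Its levels were 40.4, 50.3 and 52.2 CPM in the early and 53.7, 61.3 and 65.3 CPM in the late libraries, without overlap (log2 fold change -0.33 with an SE of 0.0652, adjusted p = 0.00641). Among 16 genes of the intercalated disc, which joins cardiomyocytes end to end, Ctnna3 alone was called. It encodes αT-catenin and lay at 6.41, 7.6 and 9.04 CPM against 8.67, 11.7 and 13.2 CPM, with 1 late library inside the early range (log2 fold change -0.56 with an SE of 0.091, adjusted p = 0.00104). None of the 28 genes in the sarcomere and Z-disc list and none of the 29 in the calcium handling list, ryanodine receptors included, was called between the deletions. Over all genes tested 2.15% were called, so lists of this size would hold few calls at that share. At an unadjusted p under 0.05 by the same test, 5 sarcomere and Z-disc genes were higher and 0 lower. For calcium handling 1 was higher and 6 were lower. Flnc of the Z-disc and the calcium pump Atp2a1, both called and described below, stood in other lists.

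**Figure D2:**
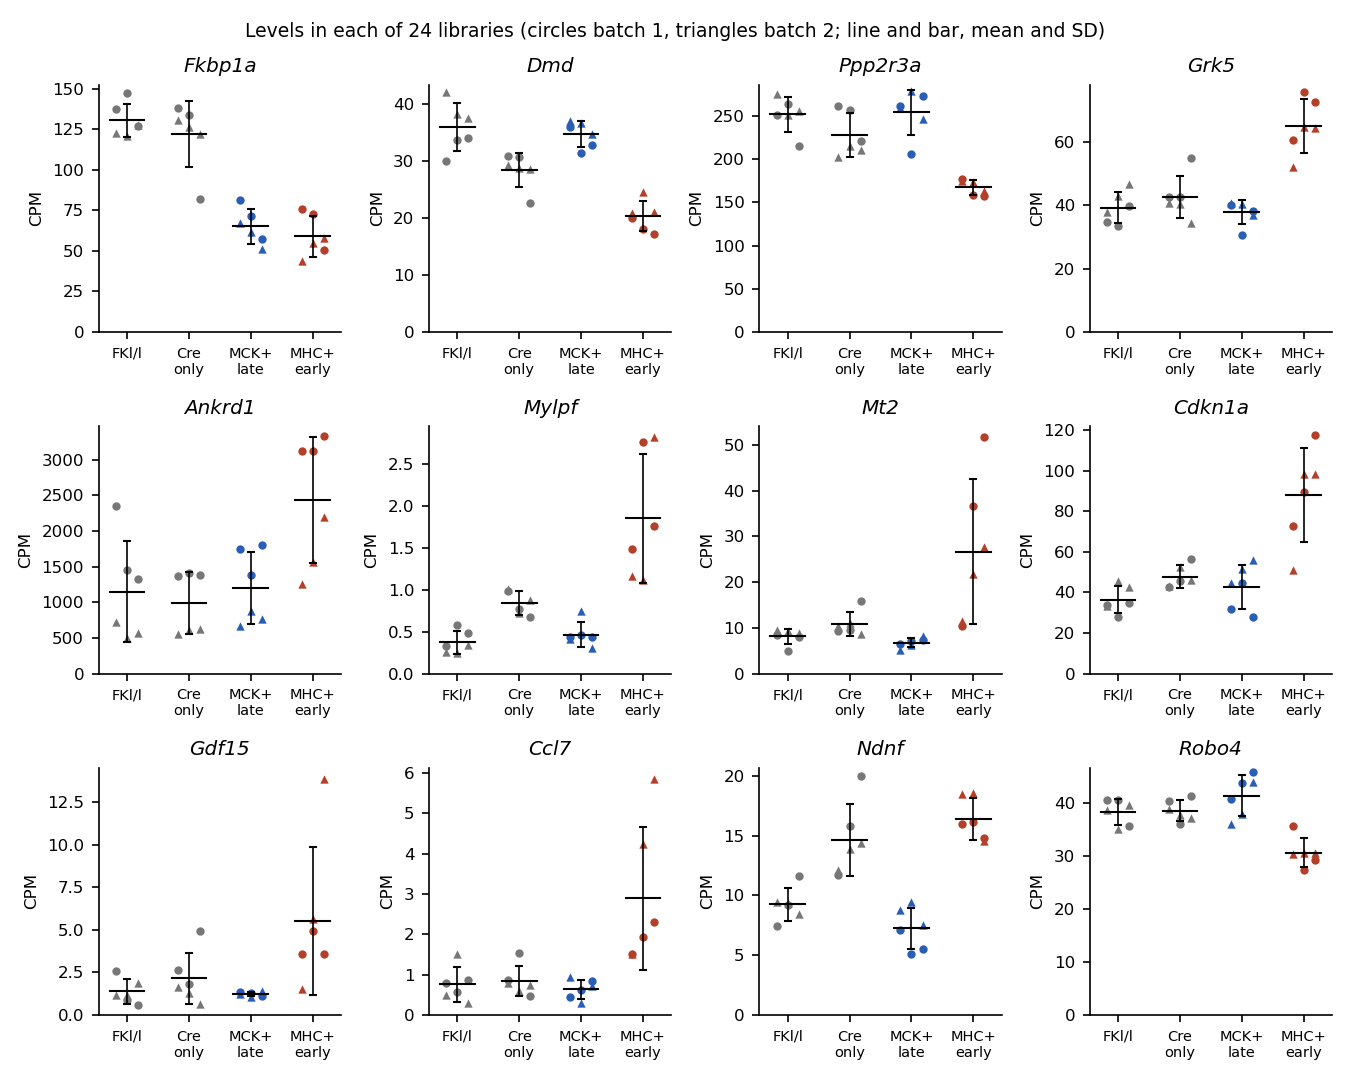
Level in CPM (vertical axis, from 0) of 12 genes in each library of the 4 genotypes, circles for batch 1 and triangles for batch 2, with mean and SD. Dmd and Ppp2r3a are lowest and Grk5, Mt2 and Ccl7 highest in FKl/l MHC+, while Ndnf is also high in MHC CRE Only and Fkbp1a is low in both deletions.

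Of 24 fetal and stress genes of cardiomyocytes tested, 6 were called higher in the early deletion, 0 lower and 18 not called, with a median log2 fold change of 0.34. The share called higher over all genes tested was 0.986%. Ankrd1, a stretch-responsive protein of the sarcomere and nucleus (ENSMUSG00000024803; chromosome 19 from 36111961 to 36120099, minus strand), had levels of 1257, 2657 and 3331 CPM in FKl/l MHC+ and 668, 1127 and 1806 CPM in FKl/l MCK+. The pooled ranges overlap because both groups were higher in batch 1, whereas within each batch they do not. In batch 1 the early libraries had 3121 to 3331 CPM and the late ones 1381 to 1806 CPM, and in batch 2 they had 1257 to 2192 CPM and 668 to 874 CPM. The difference was 0.96 in batch 1 and 1.12 in batch 2 (log2 fold change 1.04 with an SE of 0.144, adjusted p = 0.000238). Without a batch term Ankrd1 was not called (adjusted p = 0.295).

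Flnc, the filamin of the Z-disc, lay at 317, 370.4 and 429 CPM against 238, 290.5 and 307 CPM with no overlap (log2 fold change 0.43 with an SE of 0.0925, adjusted p = 0.0106). Uchl1, a deubiquitinase of neurons that stressed muscle also expresses, lay at 11.2, 13 and 15.7 CPM against 6.22, 9.17 and 10.9 CPM, again without overlap (log2 fold change 0.54 with an SE of 0.0913, adjusted p = 0.00152). Gdf15, a secreted stress cytokine, had 1.5, 4.25 and 13.9 CPM in the early and 1.07, 1.27 and 1.38 CPM in the late libraries. All early libraries lay above all late ones, library 2-1 only just and library 2-3 far above the rest (log2 fold change 2.16 with an SE of 0.489, adjusted p = 0.0239). The Gdf15 call was lost without FKl/l MCK+ 1-1, 1-2 or 1-3 or FKl/l MHC+ 2-3 (with adjusted p rising to 0.0602). Against MHC CRE Only the early deletion was higher by 1.35 for Ankrd1 and 0.50 for Uchl1 (adjusted p = 1.5e-05 and 0.00305). For Flnc and Gdf15 that difference was 0.21 and 1.38 and was not called (adjusted p = 0.268 and 0.144). The classical markers of this program, named after their values were seen, were not called. Nppb, which encodes brain natriuretic peptide, had a log2 fold change of 0.76 (± 0.307 SE, adjusted p = 0.231). The values were 0.21 (± 0.225 SE, adjusted p = 0.723) for Nppa, the atrial natriuretic peptide, 0.39 (± 0.342 SE, adjusted p = 0.639) for Myh7, the slow and fetal myosin, and 0.73 (± 0.491 SE, adjusted p = 0.523) for Acta1, skeletal actin. The list count was 6 without libraries 2-1 and 2-3 of FKl/l MHC+ together, and 4 to 8 when 1 library was left out. It was 2 against a minimum fold of 1.2 and 0 in batch 2 alone.

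Of 14 fast skeletal muscle transcripts tested, 3 were called higher, against 0.986% of all genes, 0 lower and 11 not called (median log2 fold change 0.21). The median was 0.54 in batch 1 alone, with 4 higher and 1 lower, and -0.053 in batch 2 alone, with 0 called. The summed level was 5118 to 6124 CPM in FKl/l MHC+ and 4073 to 6207 CPM in FKl/l MCK+, which overlap almost fully. Mylpf, the regulatory light chain of fast myosin, had 1.12, 1.62 and 2.82 CPM in FKl/l MHC+ and 0.303, 0.433 and 0.749 CPM in FKl/l MCK+. The groups did not overlap (log2 fold change 1.97 with an SE of 0.272, adjusted p = 0.000132), at levels of at most 2.82 CPM in every library. Atp2a1, the SERCA1 calcium pump, had 7.55, 12.6 and 16.4 CPM against 4.24, 6.11 and 8.27 CPM (log2 fold change 1.00 with an SE of 0.206, adjusted p = 0.0111). For Mybpc2, a myosin-binding protein of fast fibres, the levels were 28.4, 51.5 and 66.8 CPM against 19.1, 25.6 and 32.1 CPM (log2 fold change 0.99 with an SE of 0.191, adjusted p = 0.00944). In both the ranges overlap slightly. MHC CRE Only libraries lay between the other groups for Mylpf and Atp2a1, at means of 0.838 and 8.05 CPM, where FKl/l had 0.37 and 4.2 CPM. Their difference from FKl/l missed the threshold (adjusted p = 0.087 and 0.0842). Against MHC CRE Only the early deletion was higher for Mylpf and Mybpc2 (log2 fold change 1.13 and 0.83, adjusted p = 0.0199 and 0.0277). Without the 3 control libraries that stood apart the Mylpf value was 1.07 (adjusted p = 0.0682). For Atp2a1 that difference was 0.59 (adjusted p = 0.138).

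Metallothioneins, small proteins that bind zinc and copper and rise in stress, were higher in the early deletion. The Mt2 call is also counted among the fetal and stress genes above. Mt2 (ENSMUSG00000031762; chromosome 8 from 94172664 to 94173568, plus strand) had 10.3, 24.7 and 51.8 CPM in FKl/l MHC+ and 5.17, 6.73 and 8.12 CPM in FKl/l MCK+, with no overlap (log2 fold change 1.97 with an SE of 0.312, adjusted p = 0.00224). Libraries 1-1 and 2-1 of the early group were its lowest, at 10.3 and 11.4 CPM, and 1-3 its highest. The neighbouring gene Mt1 (chromosome 8 from 94179082 to 94180327, plus strand) had 103, 135 and 296 CPM against 90.4, 97.5 and 116 CPM, with overlap (log2 fold change 0.72 with an SE of 0.185, adjusted p = 0.0433). Its call was lost without any single library other than FKl/l 1-3, FKl/l MCK+ 2-3, FKl/l MHC+ 1-1, 2-1 or 2-2 or MHC CRE Only 1-3 (with adjusted p rising to 0.117). For Mt2 the mean of MHC CRE Only was 10.8 CPM and the early deletion exceeded it (log2 fold change 1.28, adjusted p = 0.0325). Without the 3 control libraries that stood apart this value was 1.38 (adjusted p = 0.0786).

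The promoters of both metallothionein genes and of the small heat shock gene Hspb1 are shown because their transcripts were higher together and because motifs of known stress factors can be read in them. Each runs from 250 bases before the RefSeq start to 30 after it, 5′ to 3′ on the plus strand, from RefSeq on GRCm38.p6, in which 67 of the 85 named genes had an entry. RefSeq starts can differ from the gene positions given above, and the Mt2 window ends at 94172647, before the gene start of 94172664. In the metallothionein promoters capitals mark matches to the core of the metal response element, TGCACNC or TGCGCNC on either strand, the motif bound by MTF1. In Hspb1 they mark GAANNTTC, a core of the heat shock element bound by HSF1.
Mt2, chr8:94172368-94172647: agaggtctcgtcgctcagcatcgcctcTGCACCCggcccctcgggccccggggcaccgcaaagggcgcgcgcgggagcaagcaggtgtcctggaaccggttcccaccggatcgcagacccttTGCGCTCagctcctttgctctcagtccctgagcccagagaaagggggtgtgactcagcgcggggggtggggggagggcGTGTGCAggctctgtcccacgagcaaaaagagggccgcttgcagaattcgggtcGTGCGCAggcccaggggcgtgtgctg
Mt1, chr8:94178839-94179118: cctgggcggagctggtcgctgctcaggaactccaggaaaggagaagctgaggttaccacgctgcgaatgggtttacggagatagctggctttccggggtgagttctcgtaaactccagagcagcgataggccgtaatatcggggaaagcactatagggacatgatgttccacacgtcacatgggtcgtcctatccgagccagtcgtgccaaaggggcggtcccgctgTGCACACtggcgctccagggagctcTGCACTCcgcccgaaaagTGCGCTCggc
Hspb1, chr5:135887669-135887948: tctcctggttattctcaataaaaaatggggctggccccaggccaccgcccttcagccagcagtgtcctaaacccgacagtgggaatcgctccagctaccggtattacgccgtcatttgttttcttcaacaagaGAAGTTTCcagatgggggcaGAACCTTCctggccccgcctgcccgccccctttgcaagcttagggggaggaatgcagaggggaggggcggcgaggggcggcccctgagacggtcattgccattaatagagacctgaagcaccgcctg
Mt2 had 4 matches and Mt1 had 3, and Hspb1 had 2. Of 32851 promoters of this length, 24.1% held a match to either metal response core and 7.38% to the heat shock core. A match describes the letters and not a factor's binding.

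Besides the metallothioneins, 2 of 23 genes listed as NRF2 targets and antioxidants were called higher and 0 lower (median 0.073 for the list, in which Mt1 and Mt2 also stand). For comparison with this list and the heat shock list below, 0.986% of all genes tested were called higher. Srxn1, which repairs oxidised peroxiredoxins, had 22.4, 27 and 28.7 CPM against 15.3, 20.8 and 22.2 CPM (log2 fold change 0.37 with an SE of 0.0871, adjusted p = 0.0231). Gpx4, the lipid peroxide reductase, had 603, 758 and 799 CPM against 421, 602 and 637 CPM (log2 fold change 0.37 with an SE of 0.098, adjusted p = 0.0393). Srxn1 did not overlap and Gpx4 did. The Srxn1 call was lost without FKl/l MCK+ 1-1 or FKl/l MHC+ 1-2, 1-3 or 2-3 (with adjusted p rising to 0.0739), and that of Gpx4 without FKl/l MCK+ 1-1, 1-2 or 2-3 or FKl/l MHC+ 1-1, 1-2, 1-3 or 2-3 (with adjusted p rising to 0.114). Of 20 heat shock genes 2 were called higher (median 0.19). Hspb1 lay at 262, 372 and 476 CPM against 230.2, 262 and 314 CPM, with overlap (log2 fold change 0.45 with an SE of 0.103, adjusted p = 0.0193), and was lost without FKl/l MCK+ 1-1 or FKl/l MHC+ 1-3 or 2-3 (with adjusted p rising to 0.0673). Hsp90aa1, the inducible HSP90, had 104, 276 and 311 CPM against 117, 139 and 211 CPM (log2 fold change 0.75 with an SE of 0.179, adjusted p = 0.0316). Its early library 2-1, at 104 CPM, lay below all late libraries, and the call was lost without FKl/l MCK+ 1-2, 1-3, 2-1, 2-2 or 2-3 or FKl/l MHC+ 1-1, 1-2, 1-3, 2-2 or 2-3 (with adjusted p rising to 0.094).

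Targets of p53 included 4 called higher and 0 lower of 26 (median 0.15), where 0.986% of all genes tested were called higher. Cdkn1a, the cell cycle inhibitor p21 (ENSMUSG00000023067; chromosome 17 from 29090976 to 29100727, plus strand), had 50.8, 94 and 118 CPM in FKl/l MHC+ and 27.8, 44.7 and 55.7 CPM in FKl/l MCK+. Of the early libraries, only 2-1, at 50.8 CPM, fell inside the late range (log2 fold change 1.06 with an SE of 0.179, adjusted p = 0.0031). Its difference was 1.42 in batch 1 and 0.71 in batch 2. It was also higher than in MHC CRE Only, which averaged 47.7 ± 5.6 CPM (SD, n = 6; log2 fold change 0.89, adjusted p = 0.0122). Phlda3, an inhibitor of AKT, had 25.9, 32.3 and 37.5 CPM against 15.2, 17.2 and 23.9 CPM without overlap (log2 fold change 0.80 with an SE of 0.202, adjusted p = 0.0401). Perp, a membrane protein of desmosomes, was at 0.35 (± 0.084 SE, adjusted p = 0.0231) and the nuclease Aen at 0.31 (± 0.0761 SE, adjusted p = 0.0284), both without overlap. Against MHC CRE Only the early deletion was at 0.33 for Perp (adjusted p = 0.0359) and 0.10 for Aen (adjusted p = 0.563). MHC CRE Only libraries had 15.5 to 33.3 CPM of Phlda3, overlapping the early ones. Without the 3 control libraries that stood apart, that difference was 0.41 for Phlda3 (adjusted p = 0.352). Phlda3 lost its call without FKl/l MCK+ 1-1, 1-3, 2-1, 2-2 or 2-3 or FKl/l MHC+ 1-1, 1-2, 1-3, 2-1 or 2-3 (with adjusted p rising to 0.0909), Perp without FKl/l MCK+ 1-1 or 1-3 or FKl/l MHC+ 1-3 or 2-3 (with adjusted p rising to 0.0673) and Aen without FKl/l MCK+ 1-1, 2-1 or 2-2 or FKl/l MHC+ 2-3 (with adjusted p rising to 0.0883). The list count fell to 1 without FKl/l MCK+ 1-1 or FKl/l MHC+ 2-3.

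Regulators of contraction and excitability differed as single genes. Grk5, a kinase that desensitises adrenergic receptors (ENSMUSG00000003228; chromosome 19 from 60889749 to 61095968, plus strand), had 52.3, 64.7 and 76 CPM in the early and 30.7, 39.2 and 40.8 CPM in the late deletion, with no overlap (log2 fold change 0.78 with an SE of 0.102, adjusted p = 6.6e-05). Ppp2r3a, a regulatory subunit of protein phosphatase 2A (ENSMUSG00000043154; chromosome 9 from 101105084 to 101251795, minus strand), had 158, 168 and 176 CPM against 206, 260.1 and 279 CPM, again without overlap (log2 fold change -0.60 with an SE of 0.0772, adjusted p = 4.6e-05). Late, floxed and driver-only hearts had close means for both, 37.9, 39.3 and 42.7 CPM for Grk5 and 254, 252 and 228 CPM for Ppp2r3a. Against MHC CRE Only the early deletion differed by 0.61 and -0.44 (adjusted p = 0.00143 and 0.00191). They were the called members among 29 genes of adrenergic and kinase control, where 2.15% of all genes tested were called.

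Kcnd2, a pore subunit of the transient outward potassium current, was lower at 5.87, 7.6 and 12.2 CPM against 9.62, 12.1 and 15.3 CPM, with overlap (log2 fold change -0.55 with an SE of 0.127, adjusted p = 0.0205). The Kcnd2 call was lost without FKl/l MCK+ 1-1 or FKl/l MHC+ 1-2 or 2-3 (with adjusted p rising to 0.0656). Adra2b, an α2-adrenergic receptor, was lower at 0.379, 0.638 and 0.913 CPM against 1.1, 1.16 and 1.54 CPM (log2 fold change -0.94 with an SE of 0.231, adjusted p = 0.0274), without overlap, and its call was lost without FKl/l MCK+ 1-3 or 2-3 or FKl/l MHC+ 1-1, 1-3 or 2-3 (with adjusted p rising to 0.0808).

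Of 24 endothelial markers tested, 10 were called lower in the early than in the late deletion, against 1.17% of all genes, and 0 higher. Of the 24 markers, 23 had a log2 fold change below 0, with a median of -0.29 against -0.0071 over all genes. The median was -0.31 in batch 1 and -0.26 in batch 2. Robo4, a receptor that stabilises vessels, had 27.4, 30.5 and 35.8 CPM against 36.1, 42.4 and 45.9 CPM with no overlap (log2 fold change -0.43 with an SE of 0.067, adjusted p = 0.000622). Tek, the angiopoietin receptor TIE2, had 39.2, 45 and 48.2 CPM against 51.1, 54.5 and 61.9 CPM, also without overlap (log2 fold change -0.31 with an SE of 0.0632, adjusted p = 0.00944). Tie1, its partner receptor, and Cdh5, the cadherin of endothelial junctions, were at -0.35 (± 0.0737 SE, adjusted p = 0.00951) and -0.36 (± 0.0704 SE, adjusted p = 0.0058), each with a slight overlap.

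The other called members, were Kdr and Aplnr and, named after their values were seen, Pecam1, Nos3, Eng and Esam, at log2 fold changes between -0.73 for the apelin receptor Aplnr and -0.26 for the adhesion molecule Esam. The endothelial claudin Cldn5, picked for being the member above 0, was at 0.016 (± 0.16 SE, adjusted p = 0.98). Side by side, and with the same FKl/l libraries as reference, the list's median was -0.20 for the early and 0.13 for the late deletion. For the driver alone it was -0.024. Summed endothelial transcripts lay between 1431 and 1735 CPM in FKl/l MHC+ and between 1637 and 2297 CPM in FKl/l MCK+. The count of 10 was 6 without FKl/l MHC+ 1-2 and 5 without 2-3, and 4 without 2-1 and 2-3 together. It was 0 when tested against a fold of 1.2 and 1 in batch 2 alone, while the median stayed between -0.32 and -0.25 in every alternative run.

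**Figure D3:**
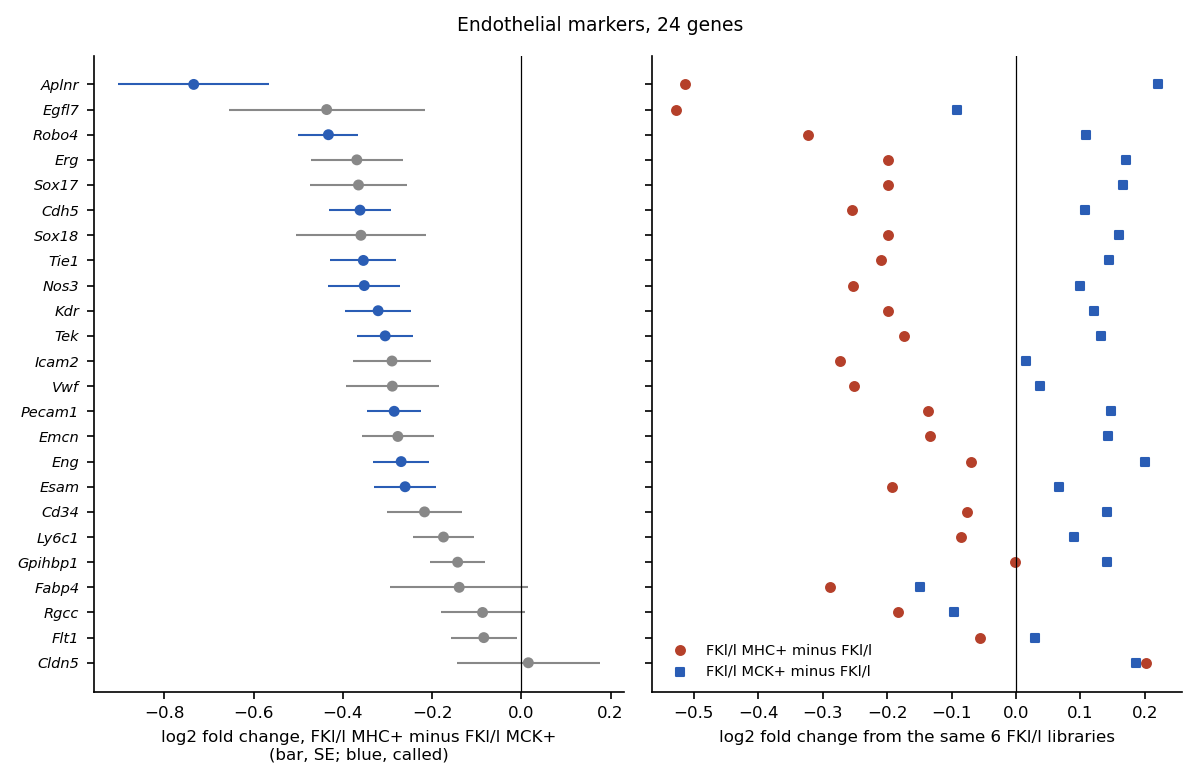
Log2 fold change of 24 endothelial markers between the deletions, with SE and called genes in blue (left), and from the shared FKl/l libraries in each deletion (right). All but Cldn5 lie below 0 on the left, with Aplnr lowest at -0.73.

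The Notch, ephrin and axon guidance, and smooth muscle and pericyte lists held 7 called genes, each lower in the early than in the late deletion. Of all genes tested 1.17% were called lower. The angiogenic and vasoactive list, described below, also held a gene called higher. In the Notch pathway, which patterns arteries, 2 of 20 were called lower and 0 higher (median -0.19). Notch4, the endothelial receptor, had 22.9, 26.3 and 28.8 CPM against 29.9, 37.1 and 41.3 CPM without overlap (log2 fold change -0.47 with an SE of 0.083, adjusted p = 0.00226), and the ligand Dll4 14.1, 19 and 22.3 CPM against 21, 25.7 and 28.3 CPM (log2 fold change -0.43 with an SE of 0.0929, adjusted p = 0.0111). Of 30 ephrin and axon guidance genes 3 were lower and 0 higher (median -0.13). Plxnd1, a semaphorin receptor of vessels, had 92.8, 111 and 119 CPM against 131, 146 and 167 CPM without overlap (log2 fold change -0.45 with an SE of 0.0814, adjusted p = 0.00256). Efnb3 and Ephb1, an ephrin ligand and receptor, were at -0.43 (± 0.103 SE, adjusted p = 0.0237) and -0.41 (± 0.0985 SE, adjusted p = 0.0231). Those 2 calls were lost without FKl/l MCK+ 1-3, 2-1 or 2-2 or FKl/l MHC+ 1-2 or 2-3 (with adjusted p rising to 0.0723) and without FKl/l MCK+ 1-1 or 1-2 or FKl/l MHC+ 1-3 or 2-3 (with adjusted p rising to 0.0696). Of 16 smooth muscle and pericyte markers 2 were lower (median -0.095), while the summed level of the list was higher in the early libraries, at 3713 to 4549 CPM, than in the late ones, at 3238 to 3851 CPM, with overlap. Pdgfrb, the receptor that recruits pericytes, had 63, 65.9 and 71.8 CPM against 79.7, 84.3 and 91.7 CPM without overlap (log2 fold change -0.36 with an SE of 0.0576, adjusted p = 0.00079). Mcam was at -0.27 (± 0.0743 SE, adjusted p = 0.0499), lost without any single library other than FKl/l 1-2 or 1-3, FKl/l MCK+ 2-1 or MHC CRE Only 1-1, 1-3 or 2-3 (with adjusted p rising to 0.201). Against FKl/l, Notch4, Pdgfrb and Ephb1 were at -0.13, -0.11 and -0.12 in the early deletion. In the late deletion they were at 0.34, 0.25 and 0.30, and none of these values was called. Dll4, Plxnd1 and Efnb3 were at -0.38, -0.29 and -0.88 in the early and 0.053, 0.17 and -0.45 in the late deletion. Of these, the early values of Dll4 and Efnb3 were called (adjusted p = 0.0276 and 7.3e-06).

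Of 32 angiogenic and vasoactive ligands and receptors, 3 were lower and 1 higher (median -0.056), against 1.17% and 0.986% of all genes tested. The lower members were Aplnr (13.9, 21.5 and 27.1 CPM against 24.1, 34 and 52.7 CPM, log2 fold change -0.73 with an SE of 0.17, adjusted p = 0.0244), the VEGF receptor Kdr at -0.32 (± 0.0736 SE, adjusted p = 0.0188) and the endothelin-converting enzyme Ece1 at -0.36 (± 0.0944 SE, adjusted p = 0.0391). Edn3, the ligand endothelin 3, was higher at 2.89, 4.6 and 7.16 CPM against 1.16, 1.7 and 2.9 CPM, with a slight overlap (log2 fold change 1.36 with an SE of 0.306, adjusted p = 0.0199), and 1.84 above MHC CRE Only on the log2 scale (adjusted p = 0.00232). The Edn3 call was lost without FKl/l MHC+ 2-3 (with adjusted p rising to 0.0609). Aplnr was lost without FKl/l MCK+ 1-1, 1-2 or 1-3 or FKl/l MHC+ 1-2, 1-3 or 2-3 (with adjusted p rising to 0.0804). Kdr was lost without FKl/l MCK+ 1-1 or 1-3 or FKl/l MHC+ 1-3 or 2-3 (with adjusted p rising to 0.0603), and Ece1 without FKl/l MCK+ 1-1, 1-2, 1-3, 2-1 or 2-2 or FKl/l MHC+ 1-1, 1-2, 1-3 or 2-3 (with adjusted p rising to 0.127).

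Fibroblast and extracellular matrix genes were called in both directions, 2 higher and 5 lower of 43, with a median of -0.17. The shares over all genes tested were 0.986% higher and 1.17% lower. Fbln1, a matrix glycoprotein of fibroblasts, had 100.1, 133 and 162 CPM against 168, 177 and 188 CPM without overlap (log2 fold change -0.41 with an SE of 0.0938, adjusted p = 0.0173). Its level separated the late deletion from the other groups, since FKl/l averaged 121 ± 17.5 and MHC CRE Only 131 ± 11.7 CPM (SD, n = 6 each). Gsn, the actin-severing gelsolin, had 480.3, 598 and 705 CPM against 688, 784 and 864 CPM (log2 fold change -0.41 with an SE of 0.0961, adjusted p = 0.0222). The other lower members were Fbln2, Dpt and Mmp2, named after their values were seen, at log2 fold changes of -0.29 to -0.36. Higher were Timp1, an inhibitor of matrix proteases, at 1.92, 3.39 and 5.64 CPM against 1.22, 1.54 and 2.5 CPM (log2 fold change 1.14 with an SE of 0.23, adjusted p = 0.00819), and Thbs4, a thrombospondin, at 9.64, 11.2 and 12.6 CPM against 6.61, 7.1 and 7.47 CPM without overlap (log2 fold change 0.65 with an SE of 0.141, adjusted p = 0.0123). The count of 5 lower was 0 without FKl/l MHC+ 2-3, 1 without FKl/l MHC+ 1-2 or 1-3 or FKl/l MCK+ 1-2, 2 when FKl/l MCK+ 1-1 was left out, and 3 without 1-3 or 2-3 of that group, FKl/l 2-3 or MHC CRE Only 1-2. Fbln1 was lost without FKl/l MHC+ 2-3 (with adjusted p rising to 0.0572) and Gsn without FKl/l MCK+ 1-1 or 1-2 or FKl/l MHC+ 1-2, 1-3 or 2-3 (with adjusted p rising to 0.0765). The list's mean log2 level, relative to all libraries of the same batch, was highest in FKl/l MCK+ 1-2, at 0.432, and without that library the list's median was -0.023.

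Of the 38 genes listed under TGF-beta and BMP signalling, 2 were called higher and 0 lower, with a median of -0.021. Over all genes tested 2.15% were called. At an unadjusted p under 0.05 by the same test, 5 members of the list were higher and 9 lower. Tgfb2, a ligand, had 6.99, 9.73 and 10.7 CPM against 4.55, 6.58 and 8.58 CPM (log2 fold change 0.48 with an SE of 0.113, adjusted p = 0.0217), and Fstl3, which binds and blocks activins, 5.6, 7.48 and 10.3 CPM against 4.27, 4.79 and 5.66 CPM (log2 fold change 0.62 with an SE of 0.132, adjusted p = 0.0106). The groups overlap for both, and the Tgfb2 call was lost without FKl/l MCK+ 1-3 or 2-3 or FKl/l MHC+ 1-2, 1-3 or 2-3 (with adjusted p rising to 0.0662). In the Wnt pathway 1 of 33 was called, the receptor Fzd2, at 18.2, 20.3 and 25.6 CPM against 10.4, 13.8 and 17.5 CPM without overlap (log2 fold change 0.59 with an SE of 0.106, adjusted p = 0.00244). Without a batch term Fzd2 was not called. Masp1, a protease of the lectin pathway and the called member of 27 complement and coagulation genes, had 22.4, 26.9 and 31.1 CPM against 17, 18.1 and 20.6 CPM without overlap (log2 fold change 0.55 with an SE of 0.104, adjusted p = 0.00466). Its mean in FKl/l was 11.5 CPM, below the means of both deletions.

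Chemokines that attract monocytes were higher. Ccl7 had 1.5, 2.12 and 5.85 CPM against 0.294, 0.667 and 0.93 CPM without overlap (log2 fold change 2.15 with an SE of 0.391, adjusted p = 0.00406), and Ccl2 had 1.18, 2.42 and 5.43 CPM against 0.861, 1.15 and 1.51 CPM with overlap (log2 fold change 1.29 with an SE of 0.272, adjusted p = 0.0106). Their levels in FKl/l and MHC CRE Only averaged 0.76 and 0.837 CPM for Ccl7 and 1.12 and 1.08 CPM for Ccl2. They were the only called members of the 24 macrophage and monocyte markers, of which 19 had a log2 fold change above 0 (median 0.15). Over all genes tested 0.986% were called higher, and 7730 of 16018 were above 0. Surface markers of macrophages were not called. Csf1r and Adgre1, picked after their values were seen, were among the 5 members below 0, at -0.076 (± 0.0789 SE, adjusted p = 0.703) and -0.041 (± 0.119 SE, adjusted p = 0.912). The mean log2 level of the list, both chemokines included, was taken relative to all libraries of the same batch. It ran from 0.0152 to 0.313 in FKl/l MHC+ and from -0.157 to 0.111 in FKl/l MCK+. Ccl2 was not called when only the 12 libraries were fitted, by limma voom or without a batch term. Lcn2 and Serpina3n, acute-phase proteins, were also higher, at 1.14 (± 0.25 SE, adjusted p = 0.0146) and 1.09 (± 0.271 SE, adjusted p = 0.039). They were lost without FKl/l MHC+ 1-3 or 2-3 (with adjusted p rising to 0.0527) and without FKl/l MCK+ 1-1, 1-2, 2-1 or 2-3 or FKl/l MHC+ 1-2, 1-3 or 2-3 (with adjusted p rising to 0.0948). For Lcn2 the difference from MHC CRE Only was 0.54 (adjusted p = 0.271).

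The called genes of energy metabolism are given by list, where 2.15% of all genes tested were called. Ucp2, an uncoupling protein of the inner mitochondrial membrane and the called member of 33 fatty acid genes, had 195, 233 and 281 CPM against 125, 163 and 186 CPM without overlap (log2 fold change 0.60 with an SE of 0.0904, adjusted p = 0.000472). Of 29 glycolysis and glycogen genes 2 were higher, the phosphofructokinase Pfkp at 0.30 (± 0.081 SE, adjusted p = 0.0437) and the phosphoglycerate mutase Pgam1 at 0.35 (± 0.0817 SE, adjusted p = 0.0199). They were lost without any single library other than FKl/l 1-1, 1-2 or 1-3, FKl/l MCK+ 1-2 or 2-3, FKl/l MHC+ 2-1 or MHC CRE Only 1-1, 1-3 or 2-3 (with adjusted p rising to 0.133) and without FKl/l MCK+ 1-1 or 1-2 or FKl/l MHC+ 1-3 (with adjusted p rising to 0.0733). Enzymes of branched-chain amino acid breakdown had 22 of 24 log2 fold changes below 0, with a median of -0.07 and 0 called. Over all genes 8288 of 16018 were below 0. Of nuclear-encoded oxidative phosphorylation genes 0 of 45 were called, and of mitochondrially encoded genes 0 of 15. Among 24 muscle ubiquitin ligase and autophagy genes 2 were higher, Klhl40, a muscle Kelch protein, at 0.48 (± 0.101 SE, adjusted p = 0.0102) and the deubiquitinase Usp2 at 0.36 (± 0.0962 SE, adjusted p = 0.0455), which was lost without any single library other than FKl/l 1-3, FKl/l MCK+ 2-3, FKl/l MHC+ 1-2 or 2-1 or MHC CRE Only 1-2, 1-3, 2-2 or 2-3 (with adjusted p rising to 0.122). In all, 21 of the 48 lists, with 452 members tested, had 0 members called, among them cardiac transcription factors, the unfolded protein response, mTOR signalling, ribosomal proteins and the interferon response. Of 48 ribosomal protein genes, however, 45 were above 0 (median 0.11), with medians of 0.20 in batch 1 and -0.021 in batch 2. At an unadjusted p under 0.05 by the same test 13 were higher and 0 lower, and other settings called up to 15 higher.

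**Figure D4:**
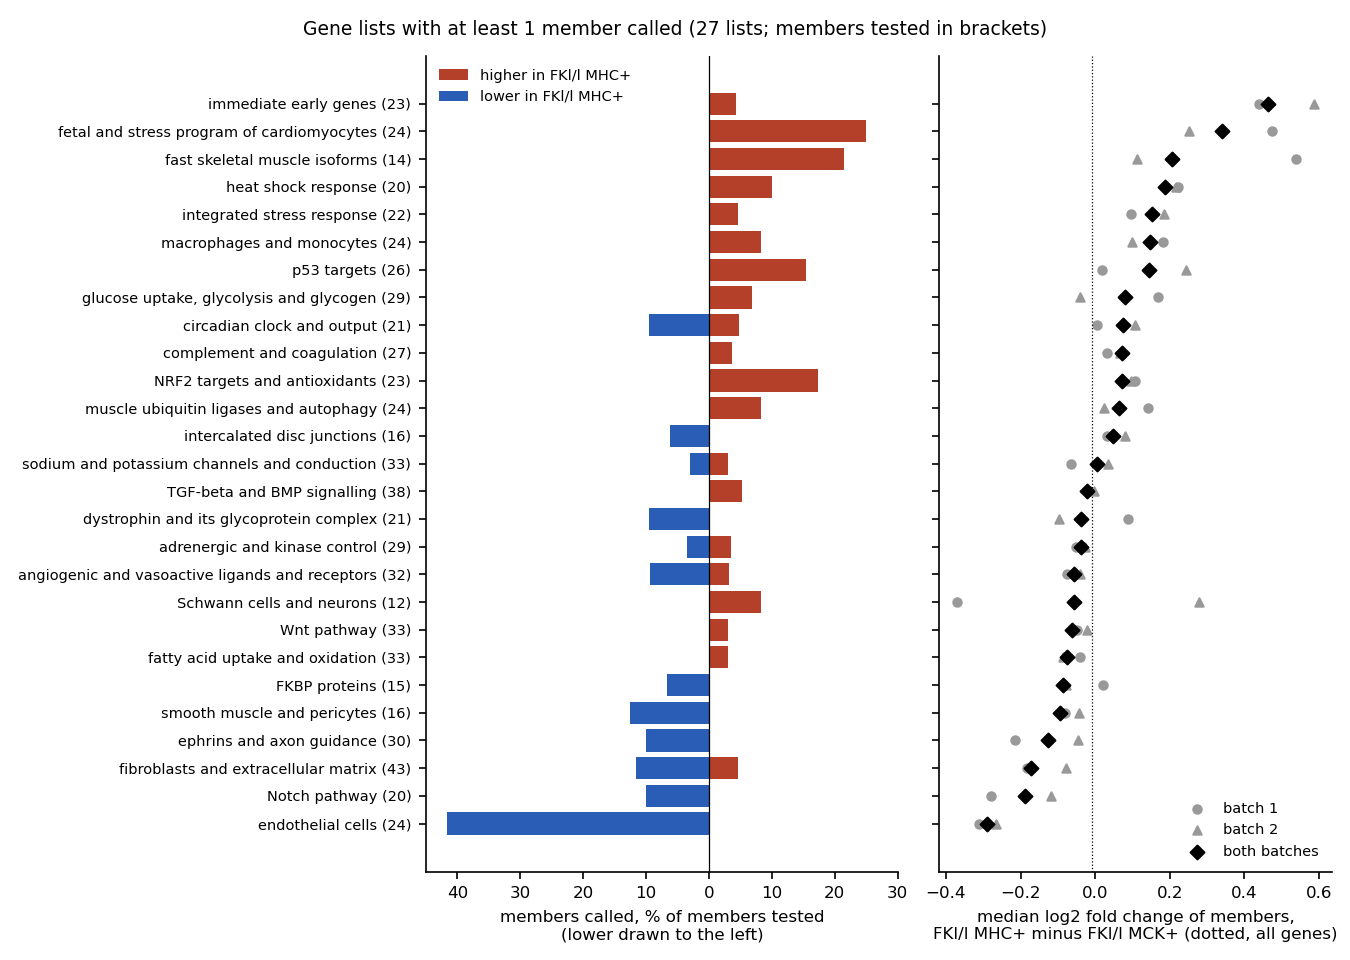
Share of the tested members of each list called higher or lower in FKl/l MHC+ (left, percent) and the list's median log2 fold change in both batches and in each (right), for the 27 lists with a called member. Endothelial markers have the lowest median, -0.29, and immediate early genes the highest, 0.46.

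Immediate early genes, which respond within minutes to stimulation and to handling of tissue, all had log2 fold changes above 0 (23 of 23, median 0.46), and 1 was called. With the same FKl/l libraries as reference, the list's median was 0.11 for the early and -0.33 for the late deletion. For the driver alone it was -0.25. Ier3, a stress-induced survival gene, had 14.5, 16.9 and 23.2 CPM against 11.1, 12.2 and 14.1 CPM without overlap (log2 fold change 0.53 with an SE of 0.117, adjusted p = 0.0146), lost without FKl/l MHC+ 2-3 (with adjusted p rising to 0.0566). The early libraries were the most spread. The mean log2 level of the list, relative to all libraries of the same batch, ran from -0.925 in FKl/l MHC+ 2-1 to 0.84 in 2-3, against -0.382 to -0.0264 in FKl/l MCK+. Without FKl/l MHC+ 2-1 the called count was 5. FKl/l MHC+ 2-1 was also the early library with the lowest level for 22 of the 44 named genes called higher. The lowest level was in 1-1 for 10 of the 44 and in 2-2 for 7. Library 2-1 also had the highest airway marker level of its group, 85.9 CPM. The part of immediate early genes in the results above was not tested. Clock and clock output genes had 1 higher and 2 lower of 21, the repressor Cry1 at -0.41 (± 0.0922 SE, adjusted p = 0.0175) and the factor Nfil3 at -0.69 (± 0.166 SE, adjusted p = 0.029) among them, lost without FKl/l MHC+ 2-3 (with adjusted p rising to 0.0548) and without FKl/l MCK+ 1-1, 1-3, 2-1 or 2-3 or FKl/l MHC+ 1-1, 2-2 or 2-3 (with adjusted p rising to 0.0681).

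Other genes among the smallest p-values belonged to no listed group. Ndnf, a secreted protein of neurons and endothelium (ENSMUSG00000049001; chromosome 6 from 65671590 to 65712326, plus strand), had 14.6, 16 and 18.6 CPM in FKl/l MHC+ and 5.08, 7.32 and 9.47 CPM in FKl/l MCK+ without overlap (log2 fold change 1.19 with an SE of 0.14, adjusted p = 2.78e-05). It was at 9.27 ± 1.38 CPM in FKl/l and 14.7 ± 3.01 CPM in MHC CRE Only (SD, n = 6 each), and the early deletion differed from MHC CRE Only by 0.16 (adjusted p = 0.617). Jpt1, a microtubule-associated protein (ENSMUSG00000020737; chromosome 11 from 115497353 to 115514387, minus strand), had 101, 121 and 133 CPM against 67.1, 75.5 and 81 CPM (log2 fold change 0.64 with an SE of 0.0684, adjusted p = 3.26e-06). Dcakd, a protein with a dephospho-CoA kinase domain (ENSMUSG00000020935; chromosome 11 from 102994047 to 103028333, minus strand), had 22.6, 24.3 and 30.1 CPM against 34.9, 43.2 and 48.5 CPM (log2 fold change -0.72 with an SE of 0.0809, adjusted p = 6.93e-06). The unnamed gene 2010001K21Rik had 3.79, 4.92 and 7.13 CPM against 1.69, 2.41 and 2.74 CPM (log2 fold change 1.13 with an SE of 0.143, adjusted p = 4.6e-05). None of these groups overlap, and Jpt1, Dcakd and 2010001K21Rik also differed from MHC CRE Only, at 0.45, -0.31 and 1.00 (adjusted p = 0.000468, 0.0384 and 0.000227).

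Many genes with large folds were low in abundance. Among called genes with at least 1 CPM in either group and no predicted name, the 15 highest and 15 lowest by fold are described, and called genes outside these limits had larger folds in both directions. Of the 15 highest, at log2 fold changes of 1.09 to 2.16, 9 averaged under 5 CPM in both groups, 9 did not overlap and 10 kept their call with each of the 24 libraries left out in turn. Of the 15 lowest, whose log2 fold changes ran from -1.50 to -0.66, 11 averaged under 5 CPM, 8 did not overlap and 5 kept their call. Mycn, a growth-promoting transcription factor of the developing heart, had 0.757, 0.957 and 1.39 CPM against 1.45, 2.28 and 2.59 CPM without overlap (log2 fold change -1.09 with an SE of 0.193, adjusted p = 0.00235). Lypd8l was lowest of these, with 0.626, 1.64 and 2.36 CPM against 2.4, 4.21 and 9.09 CPM (log2 fold change -1.50 with an SE of 0.296, adjusted p = 0.00892), and its call was lost without FKl/l MHC+ 2-1 and 2-3 together. Fstl4, a follistatin-like protein, had 4.7, 9.58 and 19.9 CPM against 3.56, 4.91 and 5.74 CPM with overlap (log2 fold change 1.14 with an SE of 0.209, adjusted p = 0.00508). Slc9a3, a sodium-proton exchanger, had 0.805, 0.919 and 1.63 CPM against 0.0615, 0.212 and 0.535 CPM (log2 fold change 2.05 with an SE of 0.409, adjusted p = 0.00732), Fmn1, a formin, 1.61, 2.02 and 3.02 CPM against 0.672, 1.06 and 1.42 CPM (log2 fold change 1.09 with an SE of 0.208, adjusted p = 0.00451) and Ankrd45 1.08, 1.43 and 2.64 CPM against 0.394, 0.591 and 0.722 CPM (log2 fold change 1.51 with an SE of 0.262, adjusted p = 0.00191), each without overlap.

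By their labels, MHC CRE Only and FKl/l hearts carry no Fkbp1a deletion and differ in the early driver and in the floxed allele. The library labelled MHC CRE Only 1-3, at 81.8 CPM of Fkbp1a, goes against that label and lies close to the 81.1 CPM of FKl/l MCK+ 1-1. Their comparison gave 7 called genes (0.0437%), of which 1 was among the 345, the chromatin regulator Asxl1, named after its values were seen. Of the 158 genes higher in the early deletion, 75.3% had a driver-alone log2 fold change above 0, against 50.9% of all genes, and their median was 0.11. Of the 187 lower genes 52.9% were below 0, with a median of -0.0062. Across the 345 genes the log2 fold changes correlated at Pearson r = 0.479 and Spearman rho = 0.456, and across all 16018 genes at r = 0.169. These are descriptions across genes, which are not independent replicates, share 1 fit and were chosen for the first quantity. Without the 3 control libraries that stood apart, the comparison gave 4 calls, and the shares were 78.5% of the higher and 49.2% of the lower genes, with r = 0.47 across the called genes. Relative to FKl/l, the higher genes had a median of 0.40 in the early and -0.056 in the late deletion, and the lower genes -0.26 and 0.12, with FKl/l libraries shared by both values. Against FKl/l the early deletion gave 274 calls (1.71%), the late 8 (0.0499%), and against MHC CRE Only the early deletion gave 299 (1.87%). Without those 3 libraries the counts were 496, 11 and 228.

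**Figure D5:**
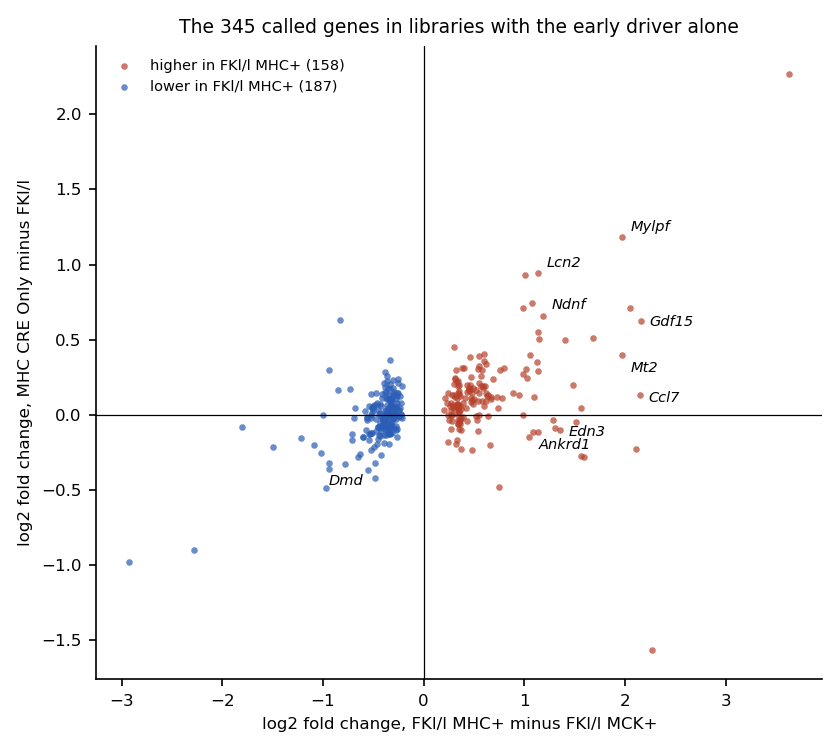
Each of the 345 called genes by its log2 fold change between the deletions (horizontal axis) and between MHC CRE Only and FKl/l (vertical axis). Genes higher in the early deletion lie more often above 0 on the vertical axis (75.3%) than lower genes lie below it (52.9%).

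The early-late difference itself changed with batch for 3 genes (0.0187%), tested as an interaction. Vegfa, the main vascular growth factor, had 74.6, 66.4 and 76.1 CPM in the early libraries of batch 1, below the late ones at 117 to 136 CPM, and 106 to 159 CPM in batch 2, within which the late ones lay. MHC CRE Only libraries had 89.8 to 99.7 CPM in batch 1 and 114 to 122 CPM in batch 2. FKl/l libraries had 119 to 140 CPM and 133 to 139 CPM. The log2 fold change of Vegfa between the deletions was -0.79 in batch 1 and 0.036 in batch 2 (adjusted p of the interaction = 0.0254). Lrtm1, a leucine-rich repeat membrane protein, went from 0.27 to -0.67, and Tmppe, a putative phosphoesterase, from 0.61 to -0.53, each with the same adjusted p. With a term for each genotype and batch, 1211 genes were called in batch 1 and 34 in batch 2. The interaction count rested on single libraries, and 2586 genes had an unadjusted p under 0.05. It was 0 without FKl/l MCK+ 1-1, 1-2, 2-1, 2-2 or 2-3 or FKl/l MHC+ 1-2, 1-3 or 2-2. It was 32 without FKl/l 1-1, 128 without FKl/l 1-3, 363 without FKl/l MCK+ 1-3, 10 without FKl/l MHC+ 1-1, 123 without FKl/l MHC+ 2-1, 36 without FKl/l MHC+ 2-3, 84 without MHC CRE Only 1-3.

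The authors' deposited table of this comparison lists 16363 genes tested against a minimum fold of 1.2, of which 14 had an adjusted p under 0.05, 11 higher and 3 lower. All 14 were among the 345 called here, Ndnf, Dmd, Jpt1, Mylpf, Ankrd1, Grk5, Mt2 and Cdkn1a among them. Tested here against the same fold, 17 genes were called, 12 higher and 5 lower. Epn3, an epsin of endocytosis that is in the authors' deposited table and was picked after its values were seen, had 50.3, 61.9 and 72.5 CPM in the early and 21.3, 27.1 and 50.1 CPM in the late libraries (log2 fold change 1.08 with an SE of 0.21, adjusted p = 0.0102). Of the 80 named genes called between the deletions, 42 kept their call with each of the 24 libraries left out in turn, and 0 changed sign in any alternative run.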

How the data were processed

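RNA was extracted with TRIzol from whole mouse hearts and sequenced from strand-specific libraries, per the labels' protocols, in 24 libraries of 4 genotypes. The deposited table holds read counts per Ensembl gene, whole numbers that the authors did not normalize. Per the submitters' processing notes, STAR, RSEM, Trim Galore, FastQC and bcl2fastq 2.17 were used, with the mm10 build. The part of each tool, the gene annotation and any use of strand were not given in the sources used here. Genes that share reads with a near-identical copy or an antisense partner are less certain. Per the file headers, the authors' deposited comparison table lists for each gene its log2 fold change and log2 mean expression, then a score (the test statistic) and p-values before and after adjustment.

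Rows named by a transcript and no gene (3660 rows, 0.873 to 4.28% of counts) were left out. Depth was 27799403 to 40412640 counts per library, which limits precision for genes near 1 CPM. Genes were filtered with edgeR's filterByExpr, scaled by TMM, and tested with edgeR 4.0.16 (R 4.3.3) by the robust quasi-likelihood F-test in 1 fit of all 24 libraries with genotype and batch. The 2-sided p-values were adjusted by Benjamini-Hochberg over 16018 genes, with a threshold of 0.05. The standard error is the log2 fold change divided by the square root of F. The procedure was tested on simulated data. Alternatives used limma 3.58.1 (voom) and DESeq2 1.42.0. Positions are from GENCODE M21 on GRCm38, which held 15967 of the tested genes.

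Named genes were the target and its paralog, the 15 called genes with the highest and the 15 with the lowest fold among those at 1 CPM or more, with the same sign in both batches and no predicted name, up to 4 called members of each of 48 gene lists by smallest p, the 5 genes with the smallest p, and the genes called for the batch interaction. Members and lists were chosen with earlier results of these data known, so list counts are descriptions. A result of this rule is not reported here.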

Additional observations from a re-analysis of the deposited data

Results flagged for a closer look

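In 7 of the 170 gene-and-genotype groups examined, 1 library lay far from the other 5 of its group, and chance gives about 1 in 20 such groups. In FKl/l MHC+ 2-3, Gdf15 was at 13.9 CPM where the other early libraries had 1.5 to 5.64 CPM, and Fzd2 was at 25.6 CPM where they had 18.2 to 20.5 CPM. In FKl/l MHC+ 2-1, Hsp90aa1 was at 104 CPM against 237 to 311 CPM in the other early libraries. In FKl/l MCK+ 1-2, Acrbp was at 3.59 CPM against 1.54 to 2.19 CPM in the other late libraries, and Srxn1 was at 15.3 CPM against 19.9 to 22.2 CPM. Mylpf was at 0.749 CPM in FKl/l MCK+ 2-2, where the other late libraries had 0.303 to 0.464 CPM. Lypd8l was at 9.09 CPM in FKl/l MCK+ 2-3, where they had 2.40 to 4.68 CPM.

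For 3 genes the difference between the deletions differed between batches in a test of the interaction. The log2 difference in batch 2 exceeded that in batch 1 by 0.82 for Vegfa. It was lower in batch 2, at -0.94 for Lrtm1 and -1.14 for Tmppe.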

How the results depend on the processing

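Of the 345 calls, the counts under other settings were 334 with RLE size factors, 292 without the low-count filter, 322 with only the 12 libraries, 332 without mitochondrially encoded genes, 317 by limma voom and 486 without the 3 control libraries that stood apart. The count was 103 when batch was left out of the model, 720 when summed Y-linked transcripts were added to it, 17 against a minimum fold of 1.2, 578 by DESeq2, 600 in batch 1 alone and 42 in batch 2 alone. Leaving out 1 library gave 143 to 490, and leaving out FKl/l MHC+ 2-1 and 2-3 together, chosen after seeing the data, gave 158. The 3 interaction calls became 710 without the low-count filter and 0 to 363 without 1 library. The cause was not tested.

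With the replicate block the count was 231, of which 225 were among the 345. Same-numbered libraries of both deletions correlated between -0.112 and 0.106, and 3 of 6 correlated best with their own number. So few weak correlations cannot show whether same-numbered libraries were paired.

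Of the genes named, those called for the batch interaction changed sign, with causes not tested. The log2 fold change of Tmppe was 0.044, against -0.017 without a batch term, -0.52 in batch 2 alone, -0.016 by limma voom and -0.038 to 0.14 without 1 library. It was -0.18 for Lrtm1, against 0.27 in batch 1 alone and 0.0042 without FKl/l MHC+ 2-1 and 2-3, and -0.36 for Vegfa, against 0.046 in batch 2 alone. Depth limits genes near 1 CPM, where few counts set the fold.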
